A study of Mus musculus with 32 samples.

Results

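The genes described are 8 that carry or modulate steroid hormone signals: the receptors Esr1, Esr2, Gper1, Pgr, Nr3c1 and Esrra, and the cofactors Greb1 and Nrip1. They were found by gene symbol among the 50600 genes measured by RNA sequencing in 32 primary mouse melanomas, 8 for each genotype and sex. All mice carried Tyr::NrasQ61K, an oncogene driven in melanocytes by the tyrosinase promoter, with Cdkn2a-/+ and floxed alleles of Cdh1 (Cdh1F/F), which encodes the adhesion molecule E-cadherin. Ecad mice had no Cre recombinase. ΔEcad mice carried, by the methods of the study, a Cre driven by the same melanocyte promoter, so that keratinocytes and stromal cells kept Cdh1. The labels write Tyr::NRAS at that position for the ΔEcad tumours. Ages are not given in the labels, and nothing in them says whether 2 tumours could come from 1 mouse, so p-values measure the spread between these tumours. Total counts ranged from 24036333 to 63923086 per tumour.

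Oestrogen receptors α (Esr1) and β (Esr2), the progesterone receptor (Pgr) and the glucocorticoid receptor (Nr3c1) are transcription factors that bind a steroid and then act on DNA, while Gper1 encodes a membrane receptor reported to respond to oestrogen. Esrra encodes oestrogen-related receptor α, which resembles Esr1 but binds no oestrogen and drives genes of mitochondrial metabolism. Greb1 is a classical oestrogen-induced gene whose product binds ERα, and Nrip1 (RIP140) is a corepressor of several nuclear receptors. In skin, fibroblasts and hair follicle cells are known to use Esr1, and most cell types use Nr3c1.

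In GENCODE M21 on GRCm38, Esr1 (ENSMUSG00000019768) lies at chr10:4611593-5005614, Pgr (ENSMUSG00000031870) at chr9:8899833-8968611 and Nrip1 (ENSMUSG00000048490) at chr16:76287400-76373827, none of which overlaps another gene. Esr2 (ENSMUSG00000021055, chr12:76120419-76177259) holds the pseudogene Gm7862 on the same strand. Gper1 (ENSMUSG00000053647, chr5:139423151-139427800) lies inside 3110082I17Rik on the opposite strand. Esrra (ENSMUSG00000024955, chr19:6910977-6921813) overlaps Trmt112 and Mir6990, and Greb1 (ENSMUSG00000036523, chr12:16670615-16800886) overlaps the antisense RNA Gm48140 and Gm44305. Whether strand was used in counting is not given, and the counts of Gper1, Esrra and Greb1 are uncertain to that extent. Strand would not separate Esr2 from Gm7862, which was counted as a gene of its own. How reads that could belong to either were assigned is not given, and the counts of Esr2 are uncertain to that extent. Over the 32 tumours, log2 CPM (counts scaled to library size) of Gper1 and 3110082I17Rik were correlated at r = 0.17, and those of Esrra and Trmt112 at r = 0.12.

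RefSeq promoter sequences (GRCm38.p6) were found for 7 of the 8 genes, with 10 start sites in all, and there was no entry for Nr3c1. The 250 bases before the start are shown for Esrra, Greb1 and Pgr. Esrra was the gene with the highest level. Greb1, an oestrogen-induced gene, varied most among those of the 8 genes with enough counts to be tested. Pgr is the classical target that was close to silent. Capitals mark CpG dinucleotides, and each strand runs 5′ to 3′ towards the start. Esrra is read from chr19:6921809-6922058 (minus strand), Greb1 from chr12:16800887-16801136 (minus strand) and Pgr from chr9:8899583-8899832 (plus strand).
Esrra: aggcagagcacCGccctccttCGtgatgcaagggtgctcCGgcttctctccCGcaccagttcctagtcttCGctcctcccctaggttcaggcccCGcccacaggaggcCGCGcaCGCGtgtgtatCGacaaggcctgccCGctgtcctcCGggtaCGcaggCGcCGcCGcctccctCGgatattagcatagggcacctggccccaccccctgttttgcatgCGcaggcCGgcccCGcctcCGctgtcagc
Greb1: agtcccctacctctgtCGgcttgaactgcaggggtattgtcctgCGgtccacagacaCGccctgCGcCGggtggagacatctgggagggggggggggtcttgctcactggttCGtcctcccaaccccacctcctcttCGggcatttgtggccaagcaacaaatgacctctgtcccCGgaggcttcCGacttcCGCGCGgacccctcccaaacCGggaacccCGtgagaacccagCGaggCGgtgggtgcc
Pgr: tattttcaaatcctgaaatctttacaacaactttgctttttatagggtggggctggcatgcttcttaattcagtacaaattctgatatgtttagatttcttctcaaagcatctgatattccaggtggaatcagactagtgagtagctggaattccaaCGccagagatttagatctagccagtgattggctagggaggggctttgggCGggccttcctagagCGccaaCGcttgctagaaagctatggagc

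These stretches held 22 CpGs in Esrra, 16 in Greb1 and 4 in Pgr, against a median of 6 over 32851 promoters. Neither the full oestrogen response element (GGTCA and its reverse complement around a spacer of 3 bases), found in 0.0639% of all promoters, nor the oestrogen-related receptor element TCAAGGTCA (0.387%), nor the glucocorticoid response element (GNACA and TGTNC with the same spacer, 0.387%) was present in any of the 10 member promoters, both strands being searched. The half-site GGTCA, which is part of the first and second of these, was in 4 of the 10 and in 35.2% of all promoters. In the Greb1 stretch above it lay at position -88 on the minus strand, and Esr2, Nrip1 and a second Greb1 start held it as well. The match is a description of the letters in these windows.

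The 8 genes spanned a wide range of levels, here in TPM, a unit that allows for transcript length. Esrra had the highest median over the 32 tumours at 71.0 TPM, followed by Nr3c1 at 20.9 TPM, Nrip1 at 4.08 TPM, Greb1 at 3.18 TPM, Esr1 at 1.82 TPM, Gper1 at 0.86 TPM and Pgr at 0.01 TPM. Esr2 had a median of 0 TPM. Esrra was above Nr3c1 in 31 of 32 tumours, Nr3c1 above Nrip1 in 32, and Gper1 above Pgr in 31, although the ranges of each pair overlapped. The genes in the middle of this order were not separated, since Nrip1 was above Greb1 in 21 tumours, Greb1 above Esr1 in 20 and Esr1 above Gper1 in 23.

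**Figure D1:**
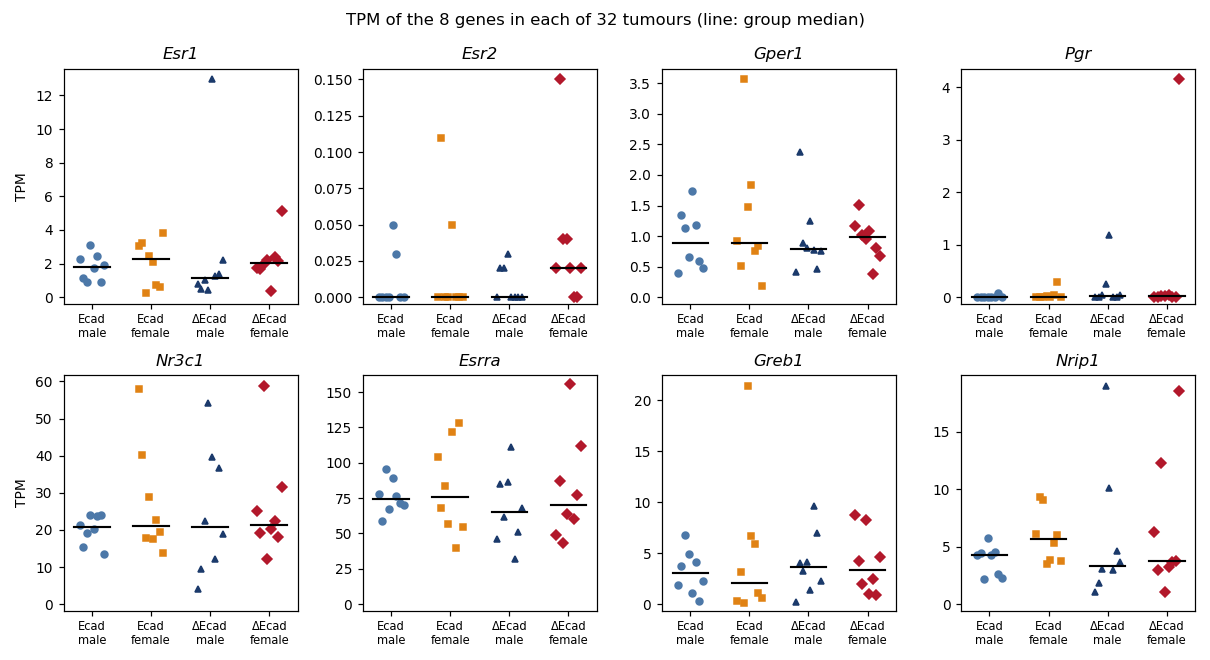
Level of each gene (TPM, linear axis, 1 panel per gene) in every tumour of the 4 label groups, 8 points per group, with a line at the group median. Group ranges overlapped for all 8 genes, as they did for nearly all genes tested, and single tumours stood high for Esr1 (12.96 TPM), Pgr (4.15 TPM), Greb1 (21.4 TPM) and Nrip1 (19.0 and 18.5 TPM).

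Before the groups were compared, Cdh1 and sex-linked genes were examined as a check of the labels. Cdh1 was lower in ΔEcad than in Ecad males (median 3.29 TPM, range 0.79 to 65.2, against 145 TPM, range 25 to 282), with a difference of -3.33 on the log2 scale (SE 0.96, adjusted p 0.365 in edgeR). In females it was not, at a median of 46.7 TPM (0.17 to 143) in tumours labelled ΔEcad and 30.6 TPM (2.16 to 151) in Ecad tumours. Cdh1 rose with the keratinocyte score defined below (slope 0.31 log2 per unit, SE 0.06, edgeR adjusted p 0.000221), so female genotypes rest on the labels. The Y-linked genes Ddx3y, Uty, Kdm5d and Eif2s3y reached 24, 14, 22 and 32 counts in ΔEcad females, with 1 tumour at 10 or more for each gene. In Ecad females they reached at most 2 counts. Xist reached 46 counts in Ecad males. The tumour labelled ΔEcad male 2 had 0 counts of these Y-linked genes and 1752 counts of Xist. ΔEcad male 7 had melanocytic markers at a summed 31.8 TPM, against at least 5880 TPM in every ΔEcad female and 17200 TPM in every Ecad male, and ΔEcad female 3 had the lowest endothelial (-3.78), macrophage (-2.23) and T cell (-4.06) scores of all tumours. ΔEcad male 2, ΔEcad male 7 and ΔEcad female 3 are the 3 tumours that stand apart, and all were kept. The members' group comparisons, their slopes on cell type scores and the relations of Nr3c1 and Nrip1 below were also computed without them.

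The first comparisons asked whether the receptors and cofactors differed between genotypes or sexes. Of the 8 genes, 6 passed the filter on low counts and were tested among 17717 genes by edgeR's quasi-likelihood test, and a gene was called where its adjusted p was below 0.05 and its log2 fold change beyond 1 in either direction. None of the 6 was called between genotypes in females, where 1.2% of all genes were called, or in males, where 0% were. Likewise none was called between sexes in Ecad tumours (0.0508% of all genes called) or ΔEcad tumours (0.0395%), or for the interaction of genotype and sex (0%). No member had an unadjusted p under 0.05 in any of the 5 comparisons, and DESeq2 and limma called 0 of them. The ranges of 0 of the 6 were apart in any comparison of 2 groups, as was so for 0.0113% to 0.113% of all genes. At that unadjusted threshold 1814 of all genes stood in the male comparison and 3131 in the interaction, and DESeq2 called 21 and 1225.

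Esr1, the receptor on which most oestrogen responses depend, was at 0.23 to 3.83 TPM (median 2.29) in Ecad females and 0.37 to 5.15 TPM (median 2.06) in ΔEcad females. In males it was at 0.90 to 3.13 TPM (median 1.82) in Ecad and 0.45 to 12.96 TPM (median 1.16) in ΔEcad tumours. The ranges of all 4 groups overlapped, and 7 of the 8 ΔEcad males were at or below 2.20 TPM. The log2 fold change of ΔEcad over Ecad was 0.08 in females (SE 0.55, 95% interval -1.05 to 1.21, edgeR adjusted p 0.973) and 0.56 in males (SE 0.56, -0.57 to 1.69, adjusted p 0.727). The male value rested on ΔEcad male 5, without which it was -0.35. Female over male was 0.14 (SE 0.55) in Ecad and -0.33 (SE 0.55) in ΔEcad tumours, and without ΔEcad male 5 the latter was 0.57. The interaction was -0.48 (interval -2.07 to 1.12) with that tumour and 0.43 without it.

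Nr3c1 (ENSMUSG00000024431, chr18:39410545-39519421, overlapping no other gene), the receptor of glucocorticoids, had close medians in all 4 groups, at 20.9 TPM (13.5 to 23.98) in Ecad males, 21.1 TPM (13.7 to 57.9) in Ecad females, 20.7 TPM (4.03 to 54.1) in ΔEcad males and 21.3 TPM (12.1 to 58.9) in ΔEcad females. The Ecad males were the narrowest group. Its genotype difference was -0.11 in females (SE 0.29, 95% interval -0.70 to 0.47) and 0.33 in males (SE 0.29, -0.25 to 0.92), so changes of more than 1 log2 unit lay outside both intervals. The interaction for Nr3c1 was -0.44 (interval -1.27 to 0.38).

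Esrra likewise had close medians, of 74.2, 75.7, 65.0 and 70.3 TPM in Ecad males, Ecad females, ΔEcad males and ΔEcad females. Single tumours ranged from 31.6 TPM in a ΔEcad male to 156 TPM in a ΔEcad female. The genotype difference of Esrra was -0.03 in females (SE 0.28, 95% interval -0.60 to 0.55) and 0.08 in males (SE 0.28, -0.49 to 0.66), and the interaction was -0.11 (-0.92 to 0.70). These were the narrowest intervals of the members.

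Gper1, the membrane receptor, was low throughout, at 6 to 192 counts. Its medians were 0.89 TPM (0.40 to 1.73) in Ecad males, 0.88 TPM (0.18 to 3.57) in Ecad females, 0.79 TPM (0.41 to 2.38) in ΔEcad males and 0.985 TPM (0.38 to 1.51) in ΔEcad females. The genotype difference was -0.51 in females (SE 0.48, 95% interval -1.49 to 0.46) and 0.39 in males (SE 0.48, -0.59 to 1.37). Both were set by 1 tumour, since without Ecad female 3 the female value was 0.07 and without ΔEcad male 2 the male value was -0.06. The interaction for Gper1 was -0.90 (interval -2.28 to 0.48).

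Of the cofactors, Greb1 had medians of 3.02 TPM (0.32 to 6.81) in Ecad males, 2.10 TPM (0.09 to 21.4) in Ecad females, 3.65 TPM (0.17 to 9.61) in ΔEcad males and 3.38 TPM (0.86 to 8.77) in ΔEcad females. Ecad female 4 alone lay above 10 TPM. The genotype difference of Greb1 was -0.24 in females (SE 0.75, 95% interval -1.76 to 1.29) and 0.51 in males (SE 0.75, -1.02 to 2.04), and the interaction was -0.75 (-2.91 to 1.41). Without Ecad female 4 the female difference was 0.58. These intervals were the widest of the members, and a change of 1 log2 unit in either direction lay inside both.

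Nrip1, the corepressor, was at medians of 4.30 TPM (2.18 to 5.72) in Ecad males, 5.67 TPM (3.48 to 9.32) in Ecad females, 3.36 TPM (1.05 to 19.0) in ΔEcad males and 3.72 TPM (1.09 to 18.5) in ΔEcad females. Its difference between the sexes in Ecad tumours, 0.72 (SE 0.41, 95% interval -0.11 to 1.56), had the smallest p of the members in the 5 comparisons, with an edgeR adjusted p of 0.394. The Nrip1 genotype difference was -0.07 in females (SE 0.41, interval -0.90 to 0.76) and 0.64 in males (SE 0.41, -0.20 to 1.47), and the interaction was -0.71 (-1.89 to 0.47). Between the sexes in ΔEcad tumours the 6 members lay between -0.33 (Esr1) and 0.06 (Esrra), and over the other settings between -0.57 (Esr1) and 0.75 (Greb1).

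**Figure D2:**
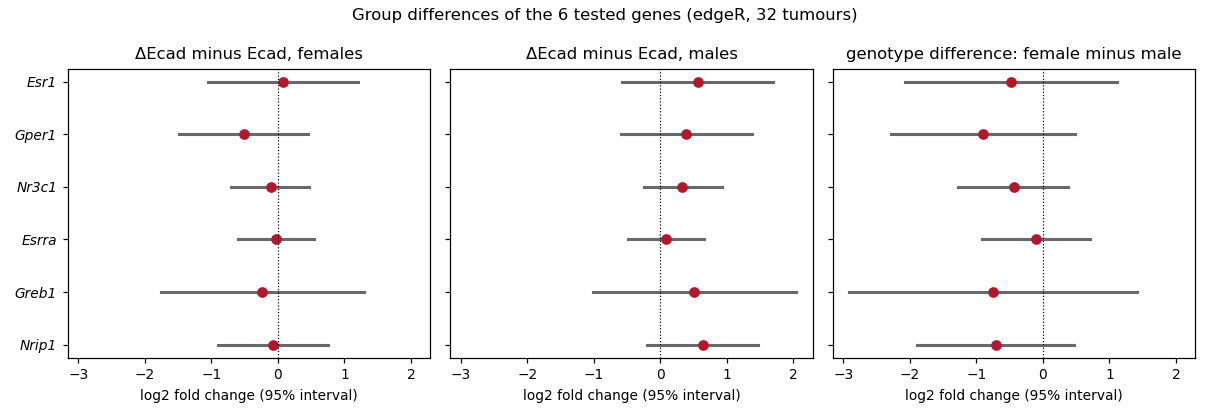
Log2 fold change (point) with its 95% interval (line) of the 6 tested genes for ΔEcad over Ecad in females, in males, and for the difference between these (female minus male). Every interval includes 0, and those of Greb1 are the widest.

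Esr2 and Pgr did not pass the filter. Esr2, the β receptor, had 0 counts in 19 of 32 tumours and at most 7 counts, in ΔEcad female 2, with 25 counts over all tumours together. A count of 0 allows up to 3 counts, which in these tumours is 0.0469 CPM (Ecad female 1) to 0.108 CPM (Ecad female 4), for counting error only. The pseudogene inside it was counted as a gene of its own and passed the filter. How reads that could belong to either were assigned is not given.

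Pgr, the progesterone receptor and a textbook target of ERα, had 0 counts in 15 of 32 tumours and 10 or more in 4. Of its 647 counts, 430 were in ΔEcad female 8 (4.15 TPM) and 122 in ΔEcad male 5 (1.18 TPM), followed by 35 in Ecad female 7 (0.30 TPM) and 20 in ΔEcad male 4 (0.25 TPM). The remaining 28 tumours had at most 9 counts each. In a fit without the filter, the log2 fold change of ΔEcad over Ecad for Pgr was 3.02 in females (SE 1.55, p 0.0595, edgeR adjusted p 0.346) and 3.60 in males (SE 1.65, p 0.0362, adjusted p 0.492), values that rest on these few tumours.

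In TPM, the tumours with the most Pgr were also those with the most Esr1. Esr1 was highest in ΔEcad male 5 at 12.96 TPM (2135 counts) and next in ΔEcad female 8 at 5.15 TPM (854 counts), and the third tumour, Ecad female 8, was at 3.83 TPM with 1 count of Pgr. In log2 CPM, however, Esr1 was higher in Ecad female 8 (4.40) than in ΔEcad female 8 (4.21), so their order depends on the scale. Greb1 lay on either side of its median of 3.18 TPM, at 1.34 TPM in ΔEcad male 5 and 4.58 TPM in ΔEcad female 8. Nrip1 was high in both, rank 4 of 32 at 10.1 TPM in ΔEcad male 5 and rank 2 at 18.5 TPM in ΔEcad female 8. A textbook list of oestrogen response genes had 18 tested genes. Of these, 2 (Ctsd and Adcy9) had their highest or second highest level of the 32 tumours in ΔEcad male 5. In ΔEcad female 8 it was 1 (Cxcl12). Over all genes tested the shares were 6.41% in ΔEcad male 5 and 4.2% in ΔEcad female 8. This pairing of tumours was chosen after the values were seen and is a description of them.

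The cell content of the pair differed. ΔEcad female 8 had both mucosal squamous markers, Krt4 and Krt13, at a summed 565 TPM, against at most 4.69 TPM in ΔEcad males, 0.92 TPM in Ecad males and 0.04 TPM in Ecad females, with Krt13 at 494 TPM. It also had the highest score of mammary and simple epithelium markers (1.78), with 6 of 8 markers above 1 TPM. For the melanocytic score it ranked 30 of 32. In summed TPM, however, the mammary and simple epithelium markers were at 162 TPM in ΔEcad female 8 and 344 TPM in ΔEcad male 5. In ΔEcad male 5, 3 of the 8 were above 1 TPM, with Csn3 at 325 TPM. ΔEcad male 5 had 0 of 2 mucosal markers above 1 TPM and ranked between 7 and 22 of 32 for the 12 cell type scores. The part of these cells in the Esr1 and Pgr levels was not tested, and in bulk tissue more cells of a type and more RNA per cell cannot be told apart.

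**Figure D3:**
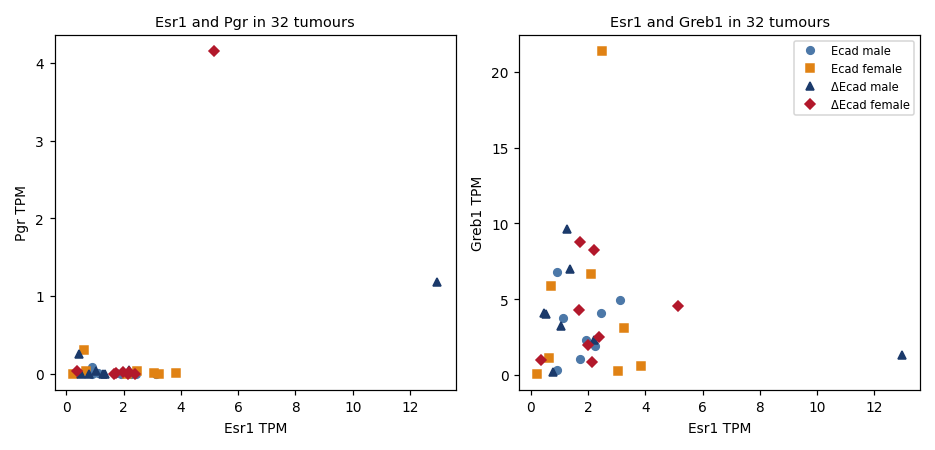
Pgr (left) and Greb1 (right) against Esr1 in each of 32 tumours, all in TPM on linear axes, with groups marked by colour and shape. The 2 tumours with the most Esr1 in TPM, at 12.96 and 5.15 TPM, are those with the most Pgr (1.18 and 4.15 TPM), while the tumour with the most Greb1 (21.4 TPM) has 2.48 TPM of Esr1.

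The next question was whether the members moved with the stromal and skin content of the tumours. Scores were the mean log2 CPM of marker genes, 10 for keratinocytes, 8 for fibroblasts and 8 for melanocytic cells, and a slope is the log2 change of a gene per unit of score within the label groups, called on an adjusted p under 0.05 alone. The keratinocyte score ran from -3.99 to 10.15 and was lowest in Ecad females (median -2.87, against 7.75, 3.33 and 7.23 in Ecad males, ΔEcad males and ΔEcad females), so group and keratinocyte content overlap in part. None of the 6 tested members was called on the keratinocyte score, on which 10.4% of all genes were called, on the fibroblast score (6.66%) or on the melanocytic score (3.67%). At an unadjusted p under 0.05 stood 1 of the 6 on the keratinocyte score (Nr3c1), against 24.9% of all genes. On the fibroblast score it was 1 (Greb1), against 21.1%, and on the melanocytic score 0, against 17%. DESeq2 and limma called 0 members on the keratinocyte and melanocytic scores.

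Greb1 came closest, with a slope on the fibroblast score of 0.70 (SE 0.23, 95% interval 0.23 to 1.18, edgeR adjusted p 0.0608). The tumour with the most Greb1, Ecad female 4, had the second highest fibroblast score (8.57), and its fibroblast markers summed to 4540 TPM. ΔEcad female 4 went the other way, with 8.27 TPM of Greb1 at a fibroblast score of 5.70. Without ΔEcad female 4 the slope was 1.07 (adjusted p 0.00306), and without Ecad female 4 it was 0.57 (adjusted p 0.212). DESeq2 called it at 0.72 (adjusted p 0.00629), a rule that called 11.6% of all genes, limma at 0.83 (adjusted p 0.0402, 3.1% of genes), and edgeR with the 3 scores in 1 model at 1.02 (adjusted p 0.0124, 6.4%). The 3 genes whose log2 CPM was most like that of Greb1 over the 32 tumours were Ldlrad4 (r = 0.79), Adamts7 (r = 0.787) and Cthrc1 (r = 0.766), the last encoding a collagen-associated secreted protein.

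Nr3c1 had a slope on the keratinocyte score of -0.047 (SE 0.02, p 0.0366, edgeR adjusted p 0.167), which did not pass the adjusted threshold, and Gper1 one of 0.071 (SE 0.04, adjusted p 0.208). Nrip1 had a slope of -0.10 on the melanocytic score (SE 0.11, adjusted p 0.701). That value was set by ΔEcad male 7, the tumour nearly without melanocytic markers, and without it the slope was -0.65 (adjusted p 0.0415). Without the 3 tumours that stand apart the slope was -0.58 (edgeR adjusted p 0.0479), in a fit that called 779 of 18072 genes. Esr1 had slopes of 0.04 (SE 0.05), -0.05 (SE 0.19) and 0.08 (SE 0.13) on the keratinocyte, fibroblast and melanocytic scores, with 95% intervals of -0.06 to 0.14, -0.43 to 0.33 and -0.18 to 0.34. Without ΔEcad male 5 its keratinocyte slope was -0.01.

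**Figure D4:**
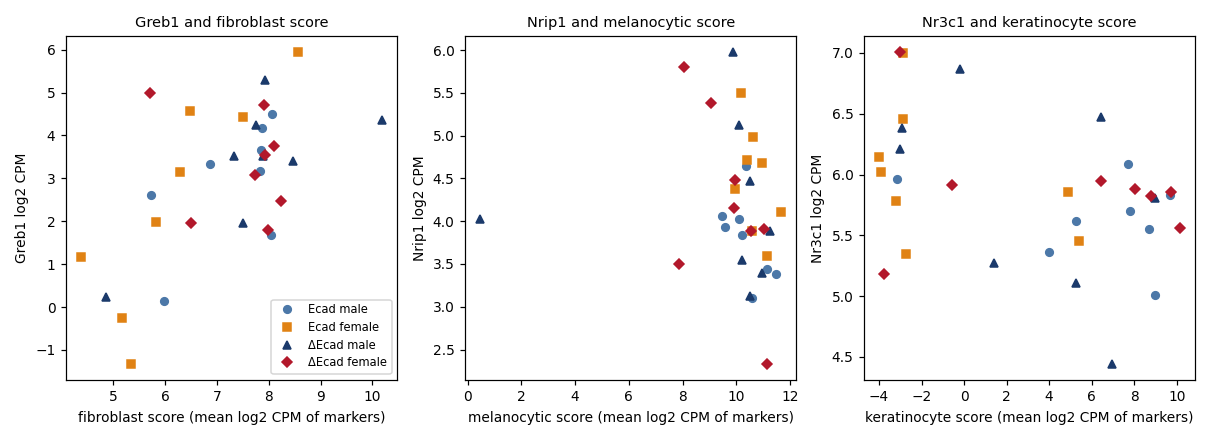
Log2 CPM of Greb1, Nrip1 and Nr3c1 in 32 tumours against the fibroblast, melanocytic and keratinocyte score (mean log2 CPM of the markers). In the middle panel ΔEcad male 7 lies alone at a melanocytic score of 0.47, against 7.87 or more in the other tumours.

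On 9 further cell type scores, added after the data were seen, none of the 6 members was called. Of their 54 values, 6 had an unadjusted p under 0.05, of Nr3c1, Esrra and Greb1. At that threshold stood between 1339 (mucosal) and 5142 (mammary and simple epithelium) of all 17717 genes. All genes were called at 7.96% on the hair follicle score, 3.25% on the endothelial, 2.55% on the pericyte and smooth muscle, 9.1% on the macrophage, 6.67% on the T cell, 9.44% on the adipocyte, 14% on the mammary and simple epithelium, 0.0226% on the mucosal and 3.6% on the skeletal muscle score. The smallest adjusted p of a member was that of Nr3c1 on the endothelial score (slope -0.15, SE 0.06, p 0.00957, edgeR adjusted p 0.115). ΔEcad female 3, the tumour with the most Nr3c1, lay alone at the low end of that score, and without it the slope was -0.18 (SE 0.16, p 0.252). For Esr1 it was 0.283, on the pericyte and smooth muscle score (slope 0.62, SE 0.32), where Greb1 had a slope of 1.02 (SE 0.42, adjusted p 0.166). Without the 3 tumours that stand apart 1 of 54 values was called, that of Nrip1 on the mammary and simple epithelium score (0.28, SE 0.09, adjusted p 0.0256), where 14.5% of all genes were called.

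The members differed in how much they varied from tumour to tumour. The SD of log2 CPM was 1.70 for Greb1 and 1.10 for Esr1, against a median of 0.866 over all genes tested, and 0.844 for Gper1, 0.819 for Nrip1, 0.568 for Nr3c1 and 0.542 for Esrra. Against the 1000 genes nearest in mean level, Greb1 varied more than 84.8%, Nrip1 than 65.7%, Esr1 than 59.1%, Nr3c1 than 49.2%, Esrra than 42.2% and Gper1 than 16.8%. Within groups the SD was much the same, at 1.75 for Greb1 and 0.569 for Esrra.

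Among the 15 pairs of the 6 tested members, Nr3c1 and Nrip1 moved together. Over the 32 tumours their log2 CPM had r = 0.66 (permutation p 3e-05, adjusted p 0.00027 over 27 relations) and Spearman's rho = 0.67 (p 5e-05, adjusted p 0.00067). Without ΔEcad male 1 and ΔEcad female 3, the tumours farthest from the median of Nr3c1, r was 0.61, and without the 3 tumours that stand apart it was 0.63. Within groups it was 0.85 in ΔEcad males, 0.76 in ΔEcad females, 0.33 in Ecad males and 0.22 in Ecad females, and the difference between these was not tested. The other 14 pairs lay between -0.42 (Esr1 and Gper1, rho = -0.34, adjusted p 0.0842) and 0.37 (Gper1 and Esrra, rho = 0.42, adjusted p 0.122). Esr1 and Greb1 had r = 0.12 (rho = -0.04, permutation p 0.527).

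Transcript length and GC content moved with this pair, both genes having long transcripts of low GC content (Nr3c1 6436 bases and 42.2% GC, Nrip1 7868 bases and 43.6% GC in the longest transcript). A length index of each tumour, the median centred log2 CPM of the top quartile of tested genes by longest transcript minus that of the bottom quartile, correlated with Nr3c1 at r = 0.80 (permutation p 1e-05, the smallest 100000 permutations can give, adjusted p 0.00027) and with Nrip1 at r = 0.67 (p 2e-05, adjusted p 0.00027). Spearman's rho was 0.72 and 0.65, and r without ΔEcad male 1 and ΔEcad female 3 was 0.69 and 0.64. Without the 3 tumours that stand apart, r was 0.77 and 0.63. Within groups r for Nr3c1 was 0.20 in Ecad males and 0.82 or more in the other 3, and for Nrip1 it was 0.87 and 0.79 in ΔEcad males and females, against 0.32 and 0.05 in Ecad males and females. A like index of GC content had r = -0.64 with Nr3c1 (adjusted p 0.00067) and -0.56 with Nrip1 (adjusted p 0.00427). The length index was lowest in ΔEcad male 1 (-1.47), which had the lowest Nr3c1 (4.03 TPM) and Nrip1 (1.05 TPM) of all tumours in TPM, and highest in ΔEcad female 3 (0.874). With the length index taken out of both genes, r between Nr3c1 and Nrip1 was 0.28, with the GC index taken out 0.47, and with both indices taken out 0.26. The length and GC indices were themselves correlated at r = -0.70. With Esr1 and Greb1, also long transcripts, the length index had r = 0.09 and -0.03. The nearest genes of Nr3c1 were Jak1 (r = 0.845), Tshz1 (r = 0.833) and Tgfbr1 (r = 0.825), and those of Nrip1 were Prkg1 (r = 0.82), Cd164 (r = 0.779) and Sash1 (r = 0.77). What this index reflects was not tested.

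**Figure D5:**
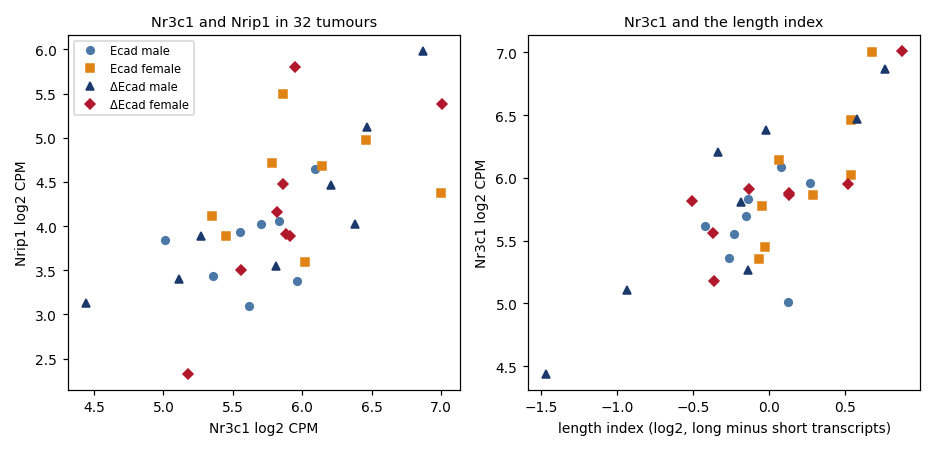
Left, Nrip1 against Nr3c1 (log2 CPM) in 32 tumours (r = 0.66). Right, Nr3c1 against the length index of the tumour, in log2 units (r = 0.80), with ΔEcad male 1 lowest on both axes at an index of -1.47.

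The genes most like Esrra were Rita1 (r = 0.811), Tmem161a (r = 0.805) and Fam3a (r = 0.805), those of Esr1 were Zw10 (r = 0.663), Gm11843 (r = 0.61) and Mapk4 (r = 0.601), and those of Gper1 were 2310057J18Rik (r = 0.70), Gm14167 (r = 0.611) and Asic3 (r = 0.59), each over 32 tumours. Spearman's rho was 0.774 to 0.801 for those of Esrra, 0.543 to 0.6 for those of Esr1 and 0.446 to 0.586 for those of Gper1. All nearest genes were picked as the highest r among the 17717 genes tested, and these values were not tested.

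Genes known to work with or below these receptors were counted by list. Of 18 coactivators and corepressors, 0 were called in any of the 5 group comparisons, the smallest p in females being that of Ppargc1a, a coactivator of Esrra (log2 fold change -1.72, SE 0.88, edgeR adjusted p 0.351). On the keratinocyte score, with which 3.34% of all genes fell, 1 fell, the arginine methyltransferase Prmt1 (slope -0.075, SE 0.02, adjusted p 0.0197). Of 8 receptor chaperones 0 were called between groups, and Hsp90aa1, a chaperone that holds steroid receptors ready for ligand, fell with keratinocyte content (slope -0.12, SE 0.04, adjusted p 0.0269). Of 3 further receptors of the family 2 were tested, and neither was called, the largest difference being that of Esrrg between the sexes in Ecad tumours (2.52, SE 0.91, adjusted p 0.16).

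Of 20 oestrogen response genes, 18 were tested and 1 was called between genotypes in females, Gata3, which was higher in ΔEcad tumours (log2 fold change 6.37, SE 1.505, edgeR adjusted p 0.0394). That call was kept in 3 of 7 other settings and with 6 of 16 single tumours left out, and with the marker scores as covariates the difference was 0.60 (adjusted p 0.976). At an unadjusted p under 0.05 there were 10 of the 18, against 15.3% of all genes, and the median over the list was 0.94, against -0.02 over all genes tested. Not all of these were higher, since Ctsd was lower in ΔEcad tumours (-0.95, SE 0.45, edgeR unadjusted p 0.0415). Gata3, a transcription factor of luminal mammary cells and of keratinocytes, rose steeply with the keratinocyte score (slope 0.53, SE 0.08, adjusted p 1.1e-05), as did Tfap2c (0.77, SE 0.08, adjusted p 1.47e-09) and Ret (0.22, SE 0.06, adjusted p 0.0104), and 5 of the 18 rose with that score in all, against 7.05% of all genes. On the fibroblast score 5 rose (3.66% of all genes did), Ret again among them, led by Fhl2 (0.99, SE 0.16, adjusted p 0.000181), Cxcl12 (0.99, SE 0.18, adjusted p 0.000711) and Stc2 (1.00, SE 0.20, adjusted p 0.00247). On the melanocytic score, with which 1.99% of all genes rose, Ctsd, a lysosomal protease, rose (0.37, SE 0.09, adjusted p 0.0214). That call rested on ΔEcad male 7, without which the slope was 0.27 (adjusted p 0.37). In males 0 of the 18 were called, with a median of -0.27, and 4 had an unadjusted p under 0.05, against 10.2% of all genes. In the interaction 0 were called and 8 stood at that threshold (17.7% of all genes), with a median of 1.02. Between the sexes 0 were called, and 5 stood there in Ecad tumours (16% of all genes, median -0.59) and 3 in ΔEcad tumours (8.81%, median 0.28).

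The methods of the study name further genes of ER activation, of which 4 of 8 were tested. That choice was made by the study and is not independent of it. None was called between groups. Rspo1, a Wnt agonist, had the smallest p in females at 4.32 (SE 1.16, edgeR adjusted p 0.0521) and in the interaction at 5.86 (SE 1.53, adjusted p 0.0526). On the keratinocyte score Il19 (slope 0.30, SE 0.07, adjusted p 0.00442) and Sdk2 (0.13, SE 0.04, adjusted p 0.0364) rose, and Sdk2 also rose with the fibroblast score (0.81, SE 0.21, adjusted p 0.0181). Over all genes 7.05% rose with the keratinocyte and 3.66% with the fibroblast score. At an unadjusted p under 0.05 stood 3 of the 4 on the keratinocyte score, against 24.9% of all genes, and 1 of the 4 on the fibroblast score, against 21.1%.

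Of 15 glucocorticoid response genes all were tested and 0 were called between groups, the smallest p in females being that of the kinase gene Sgk1 (1.49, SE 0.52, edgeR adjusted p 0.124). Tsc22d3, which encodes the glucocorticoid-induced leucine zipper, and the clock gene Per1 rose with the keratinocyte score (slopes 0.14, SE 0.03, adjusted p 0.00303, and 0.085, SE 0.03, adjusted p 0.0264), 2 of 15 against 7.05% of all genes. On the fibroblast score Errfi1 (0.54, SE 0.12, adjusted p 0.00801) and Sgk1 (0.63, SE 0.16, adjusted p 0.0137) rose, 2 of 15 against 3.66% of all genes. The metallothionein Mt1 fell with that score (-0.51, SE 0.14, adjusted p 0.028), 1 of 15 against 3%. At an unadjusted p under 0.05 stood 7 of the 15 on it, against 21.1% of all genes. Errfi1 fell with the melanocytic score (-0.35, SE 0.05, adjusted p 0.000117), as did 1.68% of all genes. That call rested on ΔEcad male 7, without which the slope was not called (-0.28, adjusted p 0.33). One tumour stood out, since 13 of the 15 genes, among them Fkbp5, Tsc22d3, Per1, Sgk1 and Zbtb16, had their highest or second highest level of the 32 tumours in Ecad male 4, whereas the next tumour had 3 of 15, and 4.78% of all genes tested did so in Ecad male 4. It also had the highest T cell score (2.74) and ranked 3 of 32 for the macrophage score, and the part of those cells was not tested. Nr3c1 itself was at 23.98 TPM there, against 23.96 and 23.87 TPM in Ecad males 7 and 6. That tumour was chosen after its values were seen.

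Of 7 ERRα targets of mitochondrial metabolism, 0 were called between groups. Perm1, a muscle cofactor of this pathway, had the smallest p in both sexes, at 3.34 in females (SE 1.10, edgeR adjusted p 0.0961) and -2.44 in males (SE 1.05, adjusted p 0.45). It rose with the keratinocyte score (slope 0.29, SE 0.09, adjusted p 0.0413), as did 7.05% of all genes.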

How the data were processed

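The authors prepared stranded polyadenylated RNA libraries, sequenced them as read pairs, mapped the reads with STAR (FastQC 0.11.5 for quality, mm10) and deposited raw counts per gene and TPM. The deposited counts are whole numbers and were used as they stand for every test. The TPM values deposited by the authors served to compare levels. Batch correction is named in the methods without saying for which data. Tumours were grouped by their labels. Members and lists were chosen with earlier results of these data known.

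Symbols came from GENCODE M21, which named 50376 of 50600 identifiers. Counts were fitted with edgeR 4.0.16 in R 4.3.3 (TMM factors, filterByExpr by group, robust quasi-likelihood test, 1 model of 32 tumours), with 95% intervals from the test statistic and Benjamini-Hochberg adjustment over 17717 genes. Scores and log2 CPM used a prior count of 1. RLE factors, no filter, marker covariates, a block for the number in the title, a fit of only the tumours compared, other ways to score, leaving out each tumour, limma 3.58.1 (voom, quality weights) and DESeq2 1.42.0 were tried as alternatives. Tested on simulated data for the comparison in females, 71 of 100 genes with a log2 change of 3 and 36 of 100 with one of 1.5 were called, with 7 unchanged genes. For the fibroblast slope 74 of 100 genes of slope 1 and 37 of 100 of slope 0.5 were called, with 4 unchanged genes. Relations between members used 100000 permutations (two-sided, scipy 1.17.1). Named were the 8 members, Cdh1, 5 sex-linked genes and the 3 genes most correlated with each tested member. Of each list, up to 3 called genes per direction were named (else the gene of smallest p). Adcy9, Fkbp5, Zbtb16, Krt4, Krt13 and Csn3 were named after their values were seen.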

Additional observations from a re-analysis of the deposited data

Results flagged for a closer look

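Within each group of 8 tumours, the gap between the most extreme tumour and its neighbour was compared with the group's range for the 6 tested members, 24 groups in all, on the log2 CPM scale. Chance alone marks about 1 in 20 groups, and 3 were marked. Esr1 was lowest in ΔEcad female 5, at a log2 CPM of 1.05 (84 counts) against 2.88 in the next ΔEcad female. Nr3c1 was highest in ΔEcad female 3, at 7.01 against 5.95 in the next, and this is the tumour with the highest length index (0.874) and the lowest endothelial score (-3.78). Esrra was lowest in Ecad male 2, at 5.38 against 5.97 in the next.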

How the results depend on the processing

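No member was called in any of the 5 group comparisons under any of the alternatives or with any tumour left out. Over all 6 members and 8 comparisons, 57 of 426 values under the other settings and 72 of 1152 with 1 tumour left out changed sign. None of these had an unadjusted p under 0.148. The 426 include the main fit read without a fold minimum, whose values could not change sign. The cause of the changes was not tested. Nrip1 kept its sign throughout in males (0.21 to 0.82) and between the sexes in Ecad tumours (0.49 to 0.96). Between the sexes in the other settings Greb1 ran from -0.23 to 0.62 in Ecad and from -0.25 to 0.75 in ΔEcad tumours, and Gper1 from -0.22 to 1.06 and from -0.27 to 0.05.

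The numbers in the titles do not pair the tumours (18 of 48 same-numbered pairs correlated above 0.1, and own numbers matched best in 8 of 96 cases). With the number as a block, 1 member in place of 0 was called on the fibroblast score, Greb1 at 0.85, and the values of Greb1 in females (0.21), Esr1 between the sexes in ΔEcad tumours (0.18), Esr1 in the interaction (0.18) and Esr1 on the fibroblast (0.07) and melanocytic (-0.00) scores changed sign. The block left 1 gene of all called between genotypes in females, against 213.

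The 3 scores in 1 model, limma and DESeq2 also called 1 member on the fibroblast score (Greb1, 1.02, 0.83 and 0.72). With marker scores as covariates, Esr1 in females was at -0.04, Esrra at 0.08, Greb1 at 0.60 in females, -0.38 in males and 0.98 in the interaction. In limma, Gper1 was at 0.04 and Greb1 at 0.62 in females, Esr1 at -0.10 and Esrra at -0.01 in males, Esr1 at 0.33 between the sexes in ΔEcad tumours, Esr1 at 0.17, Gper1 at 0.02 and Greb1 at 0.18 in the interaction, and Esr1 at 0.01 on the fibroblast and -0.00 on the melanocytic score. Without the filter Esrra in females was at 0.01. Without the 3 tumours that stand apart, a choice made after seeing the data, 1 member was called on the melanocytic score (Nrip1, -0.58), as were 779 of 18072 genes. Esrra was then at 0.08 in females and 0.02 in the interaction, and Esr1 at 0.03 and -0.07 on the fibroblast and melanocytic scores.

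With 1 tumour left out, values in females ran from -0.11 to 0.33 for Esr1, -0.71 to 0.07 for Gper1, -0.34 to 0.08 for Nr3c1, -0.30 to 0.12 for Esrra, -0.57 to 0.58 for Greb1 and -0.40 to 0.12 for Nrip1. In males they ran from -0.35 to 0.76 for Esr1, -0.06 to 0.55 for Gper1 and -0.03 to 0.18 for Esrra. Esr1 ran from -0.05 to 0.43 between the sexes in Ecad and -0.53 to 0.57 in ΔEcad tumours. In the interaction Esr1 ran from -0.71 to 0.43, Esrra from -0.39 to 0.03 and Greb1 from -1.08 to 0.07. Esr1 ran from -0.01 to 0.05 on the keratinocyte, -0.11 to 0.07 on the fibroblast and -0.10 to 0.11 on the melanocytic score, Greb1 from 0.57 to 1.07 on the fibroblast and Nrip1 from -0.65 to -0.04 on the melanocytic score. The count of members called ran from 0 to 1 on both the fibroblast (Greb1 without Ecad female 6 or ΔEcad female 3, 4 or 7) and the melanocytic score (Nrip1 without ΔEcad male 7).

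Over all genes the female comparison called between 1 (limma, or only the tumours compared) and 1281 (DESeq2), with 2 under marker covariates, 322 with RLE factors, 555 without the filter and 569 without the 3 tumours. Between genotypes in males DESeq2 called 21 and marker covariates 1, against 0, and between the sexes in ΔEcad tumours DESeq2 called 24 and the tumours compared alone 0, against 7. The interaction called 201 with RLE factors, 284 without the filter and 1225 in DESeq2, against 0. Between the sexes in Ecad tumours limma called 92 and DESeq2 1023, against 9. Counts of Esr2 and Pgr were too low for a test with the filter.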
